A study of Mus musculus with 4 samples.

Results

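The insulin-like growth factor (IGF) axis was followed in epithelial cells sorted from the ductal tips of mouse prostates during early postnatal growth. It is described through a list of 10 genes picked by name, out of 49671 genes in the table: the ligand gene Igf1, the receptor genes Igf1r, Igf2r and Insr, and the binding protein genes Igfbp2, Igfbp3, Igfbp4, Igfbp5, Igfbp6 and Igfbp7. RNA-seq of 4 libraries was available, 2 of basal cells (replicates 1 and 3) and 2 of luminal cells (replicates 3 and 2), from untreated CD-1 mice labelled as postnatal day 10 to 13. Basal cells were gated as EpCAM high and CD49f high and luminal cells as EpCAM high and CD49f low, after cells positive for CD45, CD31 or CD140a had been gated out, and the comparison asks what differs between the multipotent basal cells of the tips and the luminal cells that arise from them. The study's methods describe ventral lobes taken from many mice and do not say which mice went into which library, so the p-values below measure only the spread between these libraries, which may be technical.

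IGF1 and IGF2 are secreted ligands that activate the receptor tyrosine kinase IGF1R, which signals through the insulin receptor substrate adaptors to PI3K, AKT and mTOR and keeps FOXO transcription factors out of the nucleus. INSR is the closely related insulin receptor, whereas IGF2R, the cation-independent mannose 6-phosphate receptor, takes up IGF2 for degradation and has no kinase. The IGF binding proteins hold the ligands outside the cell until proteases release them, and in the growing prostate the stroma is a known source of IGF1 for the epithelium.

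Abundances are normalized values, meaning read counts that the authors scaled to the same number of aligned reads in every library, and values are given throughout in the order basal 1, basal 3, luminal 3, luminal 2. Their spacing showed that 1 read was worth 6.26, 6.49, 19.4 and 31.2, and the recovered reads on genes numbered 3194291, 3080222, 1036682 and 643268, so the luminal libraries were the shallower ones and depth and cell type cannot be told apart. The sort labels held in the lineage markers, whose summed values were 96627, 79047, 9216 and 7010 for the 7 basal markers and 23428, 23975, 56286 and 40388 for the 8 luminal markers. All 14 fibroblast and mesenchyme markers were nevertheless detected in every library, among them Pdgfra, which encodes the CD140a antigen of the exclusion gate, at 3307, 4144, 2575 and 8383. The summed fibroblast markers, 116098, 234015, 101053 and 232539, and the 8 smooth muscle markers, 37137, 63893, 11030 and 72389, were higher in basal 3 and luminal 2 than in the other library of the same cell type. In sorted bulk samples, fewer cells of a type and less RNA per cell cannot be told apart.

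All 10 genes passed the filter on low values in both cell types, so none entered through its high group alone. Igfbp5 was the member that differed most, with an average abundance 5.61-fold higher in basal cells, and Igfbp7 was the only other member past a 2-fold ratio of group averages, 2.35-fold higher in luminal cells. The receptors, Igf1 and the other binding proteins stayed within 2-fold. No member passed the main test, limma with a Benjamini-Hochberg adjusted p under 0.05, against 0.694% of the 18737 genes tested, and Igfbp5 was the 1 member with an unadjusted p under 0.05, which 18.5% of all genes had. By edgeR's quasi-likelihood test on the recovered reads, Igfbp5 passed with an adjusted p of 0.00579, in a direction in which 2.71% of genes passed, and no member passed toward luminal cells, where 2.35% did. The 1 member past the 2-fold ratio in each direction stands beside 18.3% of all genes past it toward luminal cells and 16.3% toward basal cells. Groups that did not overlap, with both libraries of a cell type above both of the other, were found for 4 members higher in basal cells, Igf1r, Igf2r, Igfbp4 and Igfbp5, where 27.3% of all genes showed this, and for 1 member higher in luminal cells, Igfbp7, where 23.6% did.

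**Figure D1:**
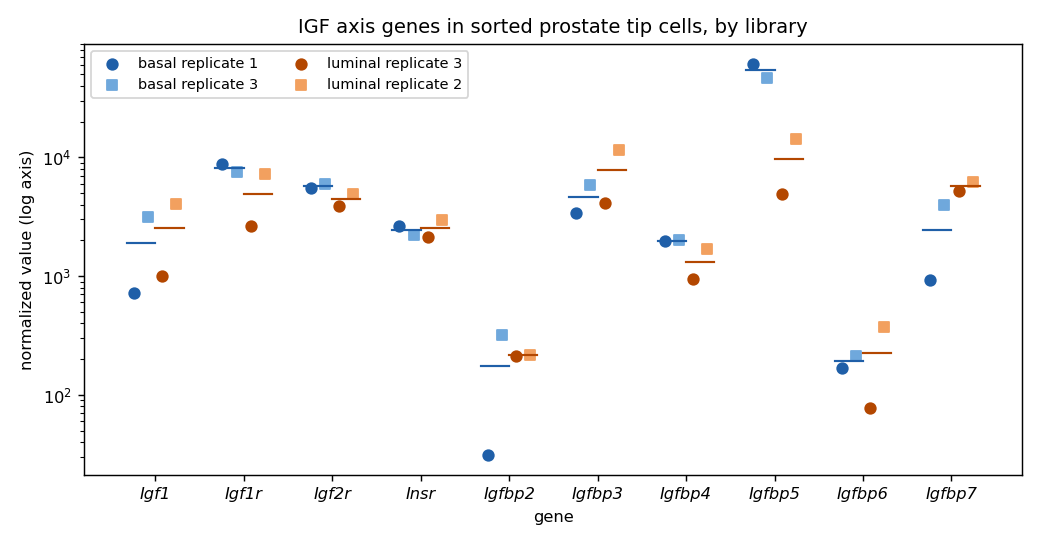
Normalized value of each of the 10 genes (log axis) in basal replicates 1 and 3 (blue) and luminal replicates 3 and 2 (orange), with a horizontal bar at each group average of 2 libraries. Igfbp5 sits at 61681 and 46529 in basal cells and at 4957 and 14335 in luminal cells, while for Igf1 the libraries of a cell type lie further apart than the group averages.

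Igf1, on chr10:87858265-87937042 of GRCm38 (plus strand), encodes the main growth-promoting ligand. Its values were 714, 3118, 1007 and 4082, from 114, 480, 52 and 131 reads. Each cell type therefore held 1 low and 1 high library, and the groups overlapped. The averages of Igf1 were 1916 ± 1700 for basal and 2545 ± 2174 for luminal cells (SD, n = 2 each), and the difference on the log2(value + 1) scale, luminal minus basal, was 0.44 ± 0.92 (SE; limma adjusted p = 0.815). Leaving out basal 1 turned it to -0.62 and leaving out luminal 2 to -0.57. The high libraries were the ones with the higher fibroblast sums: Igf1 was 4.37-fold higher in basal 3 than in basal 1 and 4.05-fold higher in luminal 2 than in luminal 3, beside 2.02-fold and 2.30-fold for the fibroblast markers. Their part in the Igf1 values was not tested.

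Igf2, the fetal ligand gene and not among the 10, had values of 582, 1072, 407 and 1465 and the same high libraries as Igf1. The difference between its groups was -0.03 ± 0.68 on the log2(value + 1) scale (SE; limma adjusted p = 0.985), and its sign turned under edgeR, where it was 0.11. Both insulin genes, Ins1 and Ins2, were listed at 0 in all 4 libraries, where 3 reads would have been worth 18.8, 19.5, 58.1 and 93.5.

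Igf1r, on chr7:67952827-68233668 (plus strand), encodes the kinase receptor for both ligands. Its values were 8780, 7470, 2633 and 7230. Both basal libraries were higher than both luminal ones, but luminal 2 lay just under basal 3 and luminal 3 stood well below the other 3 libraries. The averages were 8125 ± 926 and 4932 ± 3251 (SD, n = 2 each), which gave a difference of -0.89 ± 0.49 on the log2(value + 1) scale (SE; limma adjusted p = 0.398). Without luminal 3 the difference was -0.16, and without luminal 2 it was -1.62, so 1 library decided its size.

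Igf2r, the IGF2 clearance receptor gene on chr17:12682406-12769664 (minus strand), had the smallest SE of the receptors. Its values of 5517, 5911, 3931 and 4955 did not overlap between cell types. The difference was -0.37 ± 0.23 on the log2(value + 1) scale (SE; limma adjusted p = 0.438), and it shrank to -0.06 when the libraries were rescaled to their nuclear protein-coding genes. The antisense gene Airn, a long noncoding RNA known for imprinting Igf2r, had values of 814, 455, 407 and 592. Airn shares no exon bases with Igf2r, and whether the counting used strand is not given in the sources used here.

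Insr, on chr8:3122061-3279617 (minus strand), had values of 2662, 2228, 2130 and 2960. The highest and the lowest library were both luminal, and the difference was 0.04 ± 0.27 on the log2(value + 1) scale (SE; limma adjusted p = 0.946). Leaving out basal 3 turned it to -0.08 and leaving out luminal 2 to -0.19. Insrr, the orphan receptor gene of the same family, had 0, 1, 1 and 1 reads, too few for a fold.

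The balance of the kinase receptors was read within each library, where it does not depend on the scaling. Per kilobase of exon, Igf1r stood at 2.70 times the level of Insr in basal 1 (95% Clopper-Pearson interval 2.42 to 3.02) and at 2.75 times in basal 3 (2.43 to 3.11). The ratio was 1.01 in luminal 3 (0.781 to 1.31) and 2.00 in luminal 2 (1.57 to 2.57). Igf1r was thus above Insr in 3 libraries and level with it in luminal 3. The basal ratios were both higher than the luminal ones, the intervals of both basal libraries overlapped that of luminal 2, and the luminal libraries were further from each other than luminal 2 was from the basal ones. With 2 libraries against 2, the smallest p of a two-sided exact permutation test is 1 in 3, so this ratio was not tested.

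Igfbp5 encodes a binding protein that associates with extracellular matrix, and it lies on chr1:72857932-72874884 (minus strand), 5457 bases from the end of Igfbp2. Its values were 61681, 46529, 4957 and 14335, from 9849, 7167, 256 and 460 reads. The basal libraries were close to each other and far above both luminal ones, of which luminal 2 was 2.89-fold the higher. The averages were 54105 ± 10714 and 9646 ± 6631 (SD, n = 2 each), and the difference was -2.67 ± 0.53 on the log2(value + 1) scale (SE; limma adjusted p = 0.0705). The edgeR estimate was -2.49 and that of DESeq2 -2.47, with adjusted p-values of 0.00579 and 2.8e-05, and limma gave 0.00887 when genes had to pass the filter in both cell types and 0.0350 with a pseudocount of 10. Over these and the remaining alternatives the adjusted p reached 0.544, when basal 1 was left out, and the difference without any 1 library lay between -3.43 and -1.90. Dcn, the fibroblast marker for the proteoglycan decorin, had values of 45830, 47724, 5770 and 20256, and was the only marker of the 14 whose groups did not overlap with basal cells higher. Another 3, Col6a1, Zeb2 and Twist1, did not overlap with luminal cells higher, and the summed list did not separate the cell types. The part of such cells in the Igfbp5 values was not tested.

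Igfbp7, on chr5:77349240-77408041 (minus strand), encodes a matrix-associated protein with low affinity for IGFs. Its values were 927, 3936, 5245 and 6160, from 148, 606, 271 and 198 reads. Both luminal libraries were above both basal ones, with basal 1 far below the rest and basal 3 close to luminal 3. The averages were 2432 ± 2128 and 5703 ± 647 (SD, n = 2 each), and the difference was 1.57 ± 0.67 on the log2(value + 1) scale (SE; limma adjusted p = 0.293, edgeR adjusted p = 0.229). Without basal 1 it was 0.53 and without basal 3 it was 2.61. The fibroblast markers Col6a1 (2649, 8951, 11319 and 14040) and Zeb2 (971, 2202, 2509 and 3507) and the muscle marker Des (820, 1715, 3207 and 2834) were likewise lowest in basal 1 and higher in both luminal libraries. These 3 were named after their values were seen, and the other 7 of the 8 smooth muscle markers overlapped between the cell types and had a lower luminal average, and 10 of the 14 fibroblast markers overlapped. Their part in the Igfbp7 values was not tested. Igfbp7 shares 85 exon bases with Polr2b on the other strand, an RNA polymerase II subunit gene with values of 1465, 1929, 987 and 1652, so reads from those bases could belong to either gene if strand was not used.

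Because Igfbp5 and Igfbp7 stood at opposite ends of the members' differences, the 250 bases before their start sites are shown, from the RefSeq promoter table of GRCm38.p6, in lower case with matches to 6 short motifs in capitals. The window of Igfbp5 is chr1:72874866-72875115 and that of Igfbp7 is chr5:77408046-77408295, both on the minus strand and printed 5′ to 3′.
Igfbp5: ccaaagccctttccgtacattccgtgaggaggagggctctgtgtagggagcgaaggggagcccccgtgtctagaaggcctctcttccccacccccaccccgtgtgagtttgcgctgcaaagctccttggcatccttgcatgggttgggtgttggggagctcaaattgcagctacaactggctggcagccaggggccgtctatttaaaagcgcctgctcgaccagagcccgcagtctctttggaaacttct
Igfbp7: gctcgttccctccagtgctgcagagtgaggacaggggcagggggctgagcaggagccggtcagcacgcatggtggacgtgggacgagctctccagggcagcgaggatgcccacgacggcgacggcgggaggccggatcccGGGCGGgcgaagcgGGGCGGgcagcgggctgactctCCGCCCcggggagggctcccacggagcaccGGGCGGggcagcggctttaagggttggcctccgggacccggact
Both strands were searched, so a GC box on the other strand reads CCGCCC. Of 32851 promoter windows of the same length, 12.4% hold the letters TATAAA of the TATA element, 32.7% hold GGGCGG, known as the GC box, and 33.8% hold CCAAT, which binds NF-Y. The AP-1 site was searched as TGANTCA and occurs in 6.75% of windows. The FOXO core was searched as TGTTTAC, which 3.17% of windows hold, and the E-box as CACGTG, which 6.02% hold. Igfbp7 held 4 GC boxes and Igfbp5 none of the 6 motifs, in windows with a GC content of 74.0% and 58.8%, against a median of 52.4% over all windows. Promoters were found for 9 of the 10 members, all but Insr, and of these Igfbp4 and Igfbp6 held TATAAA and Igf1r, Igf2r, Igfbp2 and Igfbp7 held GGGCGG. A match describes the letters of the window and is not a bound site.

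**Figure D2:**
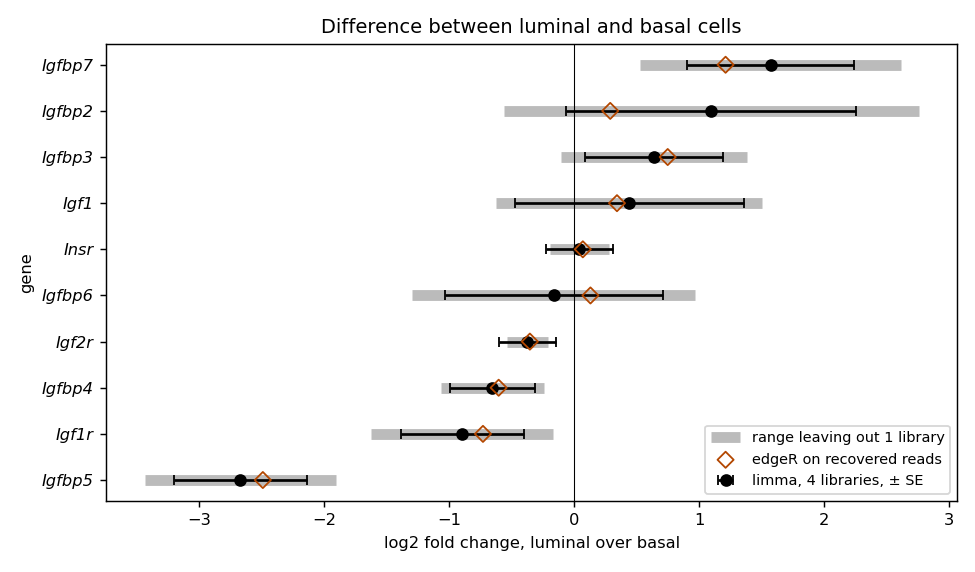
Difference between luminal and basal cells for each member (log2 scale): black points are limma estimates over 4 libraries with SE bars, orange diamonds are edgeR estimates on recovered reads, and grey bars span the limma estimates with 1 library left out. The grey bar of Igfbp5 runs from -3.43 to -1.90 and that of Igfbp7 from 0.53 to 2.61, whereas those of Igf1, Insr, Igfbp2, Igfbp3 and Igfbp6 cross 0.

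Igfbp3 encodes the main carrier of circulating IGFs and lies on chr11:7206086-7213923 (minus strand), 3539 bases from Igfbp1. Its values were 3401, 5801, 4124 and 11624. Luminal 2 was the high library and luminal 3 lay between the basal ones, so the groups overlapped. The difference was 0.64 ± 0.55 on the log2(value + 1) scale (SE; limma adjusted p = 0.557), and without luminal 2 it was -0.11. Igfbp1, its neighbour and a hepatic insulin-repressed gene, had 5 reads in basal 3 and none in the other libraries.

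Igfbp4, on chr11:99041244-99054392 (plus strand), encodes an inhibitory binding protein that is cleaved by the protease PAPP-A. Its values were 1973, 2001, 949 and 1683. The basal libraries were nearly equal and above both luminal ones, and the difference was -0.65 ± 0.34 on the log2(value + 1) scale (SE; limma adjusted p = 0.374). It was -0.24 without luminal 3 and -1.07 without luminal 2.

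Igfbp2 and Igfbp6 had the lowest normalized values of the members, before any correction for length. Igfbp2, on chr1:72824503-72852474 (plus strand), encodes a carrier abundant in fetal tissue and had values of 31, 318, 213 and 218 from only 5, 49, 11 and 7 reads. The luminal libraries agreed and the basal ones were 10.3-fold apart, which left the difference at 1.10 ± 1.16 on the log2(value + 1) scale (SE; limma adjusted p = 0.628). It was -0.56 without basal 1. Igfbp6, on chr15:102144362-102149511 (plus strand), encodes a binding protein that prefers IGF2, and its values of 169, 214, 77 and 374 rested on 27, 33, 4 and 12 reads. Here the luminal libraries were 4.86-fold apart, with a difference of -0.16 ± 0.87 on the log2(value + 1) scale (SE; limma adjusted p = 0.939) that was 0.13 in edgeR, and its averages of 192 ± 31.8 and 226 ± 210 (SD, n = 2 each) also lay the other way. For both genes the difference was within the spread between libraries.

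Levels of different genes were compared per kilobase of merged exons. In basal cells Igfbp5 led with 9008 ± 1784 per kilobase, followed by Igfbp7 (2011 ± 1760), Igfbp3 (1470 ± 542), Igf2r (614 ± 29.9), Igf1r (484 ± 55.2) and Igfbp4 (450 ± 4.48), all as mean and SD of 2 libraries. Igf1, Insr, Igfbp6 and Igfbp2 came lower, from 193 ± 172 down to 94.5 ± 110. The libraries of neighbouring genes overlapped for Igfbp7 and Igfbp3, for Igf1r and Igfbp4 and from Igf1 downwards, so those orders are not resolved. Luminal cells had Igfbp7 in front with 4717 ± 535 per kilobase, above Igfbp3 (2516 ± 1694) and Igfbp5 (1606 ± 1104), which overlapped. Igf2r (477 ± 77.8) came next and overlapped neither Igfbp5 nor Igfbp4, though it did overlap Igf1r, and from Igfbp4 (298 ± 118) and Igf1r (294 ± 194) downwards each gene overlapped the next. Among the 18737 genes kept, Igfbp5 ranked 64 and 99 by level per kilobase in the basal libraries and 941 and 322 in the luminal ones. Igfbp7 ranked 1092 and 236 in the former and 200 and 154 in the latter. With the longest transcript as the length, Igf1r (712 ± 81.2) had the higher average than Igf2r (643 ± 31.3) in basal cells, but their libraries overlapped, so that order is not resolved.

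The make-up of the 6 binding protein transcripts differed between the libraries of the cell types, and the summed value of the 6 was higher in each basal library than in either luminal one, at 68182, 58799, 15565 and 34394. Igfbp5 took 80.6% and 56.7% of their summed level per kilobase in the basal libraries and 12.0% and 19.8% in the luminal ones. By reads its share was 90.5% (95% Wilson interval 89.9 to 91.0), 79.1% (78.3 to 80.0), 31.8% (28.7 to 35.1) and 41.7% (38.8 to 44.6). Igfbp7 took 6.02%, 23.8%, 63.1% and 42.3% of the level per kilobase, and Igfbp3 8.53%, 13.6%, 19.1% and 30.9%. Per kilobase, Igfbp5 was thus the leading binding protein transcript in both basal libraries and Igfbp7 in both luminal ones. By reads, which favour longer transcripts, Igfbp7 took 1.36%, 6.69%, 33.7% and 17.9%, and in luminal 2 it came after Igfbp5 and Igfbp3 (33.8%). Per kilobase, Igfbp5 stood at 13.4 and 2.38 times Igfbp7 in basal 1 and basal 3, and at 0.190 and 0.468 times in luminal 3 and luminal 2. These shares do not depend on the scaling between libraries, their intervals cover counting error only, and with 2 libraries a group they were not tested.

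**Figure D3:**
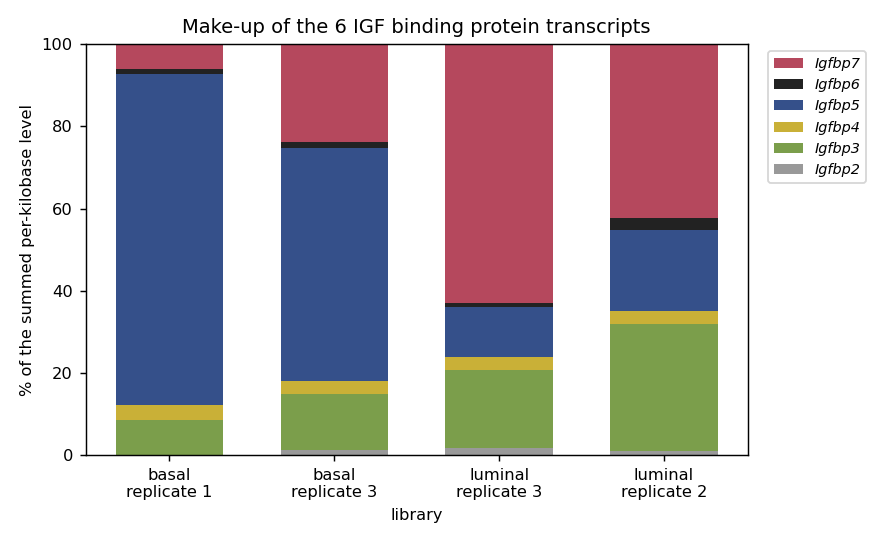
Share of each binding protein transcript in the summed level per kilobase of the 6 (in percent, stacked to 100) in each of the 4 libraries. The blue Igfbp5 block covers 80.6% and 56.7% of the basal bars and 12.0% and 19.8% of the luminal bars, where the red Igfbp7 block covers 63.1% and 42.3%.

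Libraries of the same cell type differed for several members by as much as the cell types did. All 10 members were higher in luminal 2 than in luminal 3, as were 55.0% of all genes detected in both, and 5 members were so by over 2-fold, as were 18.0% of those genes. In basal 3, 7 members were higher than in basal 1, beside 42.7% of all genes, and 3 by over 2-fold, beside 11.3%. The median ratio over all genes was 1.07 between the luminal and 0.929 between the basal libraries. Between the luminal libraries the ratio, replicate 2 over 3, was 4.86 for Igfbp6, 4.05 for Igf1, 2.89 for Igfbp5, 2.82 for Igfbp3 and 2.75 for Igf1r, beside 6.56 for the smooth muscle sum and 2.30 for the fibroblast sum. Between the basal libraries the ratio, replicate 3 over 1, was 10.3 for Igfbp2, 4.37 for Igf1 and 4.25 for Igfbp7, but 0.754 for Igfbp5 and 0.851 for Igf1r. Igfbp5 and Igf1r were therefore lower in the basal library with the higher fibroblast sum and higher in the luminal library with it. The 6 endothelial markers, of which 4 to 6 were detected per library, summed to 1548, 1611, 581 and 1745. Pecam1, the CD31 gene of the exclusion gate, was at 833, 637, 174 and 499. Of the 6 endothelial markers, 3 were higher in both basal libraries, 1 in both luminal ones, and 2 overlapped. The 6 leukocyte markers, of which 3 to 5 were detected, summed to 3019, 1734, 813 and 2056, most of it from Cd3e (2173, 1462, 639 and 1807). Ptprc, the CD45 gene, was at 150, 6, 0 and 0, from 24, 1, 0 and 0 reads. In luminal 3 and luminal 2, 3 reads would have been worth 58.1 and 93.5. The part of other cells in these differences was not tested.

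**Figure D4:**
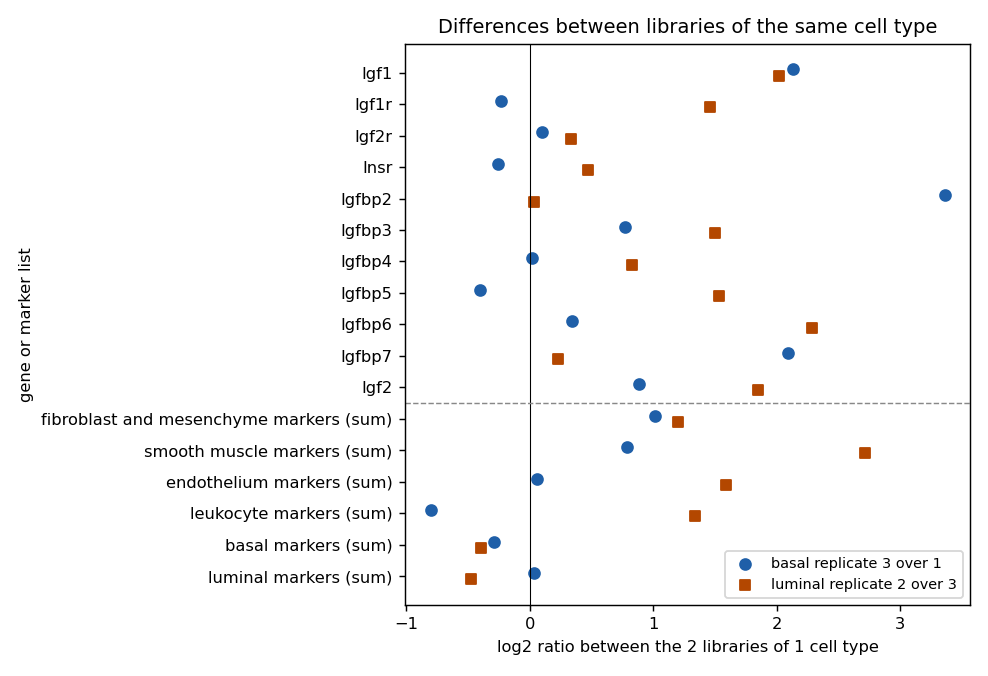
Log2 ratio between the 2 libraries of each cell type, basal replicate 3 over 1 (blue) and luminal replicate 2 over 3 (orange), for the 10 members, Igf2 and the summed markers of 6 cell types below the dashed line. All 10 members lie to the right of 0 in luminal cells, and Igf1 lies near 2 in both cell types.

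The other genes of the pathway were described from lists of 62 genes, of which 57 passed the filter. None passed limma with an adjusted p under 0.05, and 15 had an unadjusted p under 0.05, beside 18.5% of all genes. Of these, 14 were higher in basal cells, where 10.7% of all genes had such a p, and 1 in luminal cells, where 7.82% did. By edgeR with an adjusted p under 0.05, 3 were higher in basal cells (Irs2, Pdk4 and Foxo1), beside 2.71% of all genes. Only Pik3cb, 1 gene, was so in luminal cells, beside 2.35% of all genes. The 2-fold ratio was passed by 11 toward basal and by 4 toward luminal cells (16.3% and 18.3% of all genes). Of the 4 toward luminal cells, Insrr and Stc2 passed the filter only through the luminal group. When the filter had to hold in both, 2 remained, Pappa2 and Pik3cb. Groups did not overlap for 26 genes higher in basal cells and 8 higher in luminal cells (27.3% and 23.6% of all genes). The median difference of the 57 was -0.38 on the log2(value + 1) scale against -0.10 for all genes, and 37 lay below the median of all genes. Rescaling to nuclear protein-coding genes moved the median of all genes to 0.22 and that of the 57 to -0.07, so the distance between them was -0.28 before and -0.29 after. Under that rescaling 3 pathway genes passed the 2-fold ratio toward basal and 6 toward luminal cells, beside 2114 and 4530 of 18619 genes. The balance of the pathway counts turned with the scaling, and those of all genes moved the same way, from 3051 and 3431. The median of the 10 members lay at -0.06 before rescaling, or 0.04 above all genes.

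Among the 5 genes of binding protein proteolysis none passed either test, and 2, Pappa2 and Stc2, were past the 2-fold ratio toward luminal cells, where 18.3% of all genes were. Stc2 was kept through the luminal group alone, its groups overlapped and it rested on 1, 10, 16 and 2 reads. Pappa, for the protease that cleaves IGFBP4, had values of 620, 624, 39 and 623, so that luminal 3 alone was low, and without it the difference was 0.00 in place of -1.98 on the log2(value + 1) scale. Its relative Pappa2 had values of 19, 71, 97 and 436, from 3, 11, 5 and 14 reads, with a difference of 2.45 ± 1.13 (SE; limma adjusted p = 0.325). The PAPP-A inhibitor genes Stc1 and Stc2 had values of 551, 396, 271 and 748 and of 6, 65, 310 and 62. The serine protease gene Htra1 was at 676, 578, 194 and 561, with luminal 3 again the low library. Igfals, for the subunit that stabilises IGF complexes in serum, had at most 3 reads in a library, and Igfbpl1 was listed at 0 in all 4.

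Of the receptor adaptors and inhibitors, edgeR called Irs2 alone, in a direction in which 2.71% of all genes passed. Irs2, an insulin receptor substrate and activator of PI3K, had values of 20942, 16571, 2420 and 7105. Its basal libraries were well above the luminal ones, and the difference was -2.17 ± 0.52 on the log2(value + 1) scale (SE; limma adjusted p = 0.0965, edgeR adjusted p = 0.0168), between -2.94 and -1.39 without any 1 library. Its relative Irs1 followed the same order at 3764, 2930, 774 and 2150, with a difference of -1.36 ± 0.51 (SE; edgeR adjusted p = 0.117). Of the 13 adaptors and inhibitors, 4 were past the 2-fold ratio toward basal cells, beside 16.3% of all genes. None was past it toward luminal cells, where 18.3% of all genes were. After the protein-coding rescaling 1 was past it in each direction, beside 2114 of 18619 genes toward basal and 4530 toward luminal cells.

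Within the 17 genes of PI3K, AKT and mTOR, Pik3cb and Pik3r1 lay at the ends. Pik3cb, for the p110-beta catalytic subunit, had values of 451, 305, 1568 and 997, higher in both luminal libraries, with a difference of 1.75 ± 0.39 on the log2(value + 1) scale (SE; limma adjusted p = 0.0791, edgeR adjusted p = 0.0212). Pik3r1, for the regulatory p85-alpha subunit, was at 11079, 6924, 2246 and 5391 and differed by -1.33 ± 0.48 (SE; edgeR adjusted p = 0.0961). Akt1, chosen here as the best-known kinase of the list after its values were seen, was at 2261, 1838, 2304 and 1776, with overlapping groups.

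Of the 13 FOXO factors and genes they are known to activate, 4 passed the 2-fold ratio toward basal cells, beside 16.3% of all genes. None passed it toward luminal cells, where 18.3% of all genes did. After the protein-coding rescaling 2 passed toward basal and none toward luminal cells, beside 2114 and 4530 of 18619 genes. Foxo1 itself had values of 4240, 3157, 1142 and 1527, higher in both basal libraries, with a difference of -1.47 ± 0.28 on the log2(value + 1) scale (SE; limma adjusted p = 0.0705, edgeR adjusted p = 0.0183). Pdk4, a kinase that inhibits pyruvate dehydrogenase, was at 1346, 1611, 39 and 312, but only 2 and 10 reads stood behind its luminal values. It differed by -3.72 ± 0.97 (SE; limma adjusted p = 0.117, edgeR adjusted p = 0.00834), and by -2.24 without luminal 3. Upstream, the growth hormone receptor gene Ghr was at 3501, 2819, 871 and 2150 and differed by -1.20 ± 0.46 (SE; edgeR adjusted p = 0.145), and none of the 3 genes for IGF2 mRNA binding proteins was past the 2-fold ratio.

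**Figure D5:**
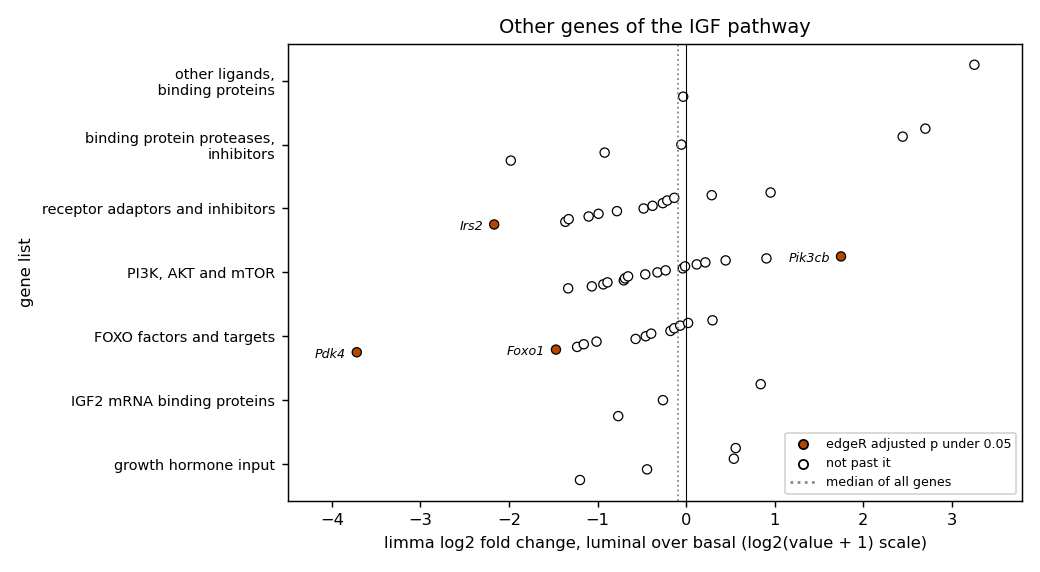
Difference between luminal and basal cells (log2(value + 1) scale) for the 57 pathway genes that passed the filter, in 7 lists. Filled points passed edgeR with an adjusted p under 0.05 (Irs2, Pdk4, Foxo1 and Pik3cb), and the dotted line marks the median of all genes at -0.10.

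The genes whose profile over the 4 libraries was most like that of Igfbp5, by the root mean square difference of centred log2 values among 10615 candidates, were Osgin2 (0.0577), Tnfaip8 (0.134) and Rin1 (0.141). Osgin2 had values of 758, 604, 58 and 187, the same order at a far lower level. For Igfbp7 they were Sprr1a (0.0824), Aldh1a3 (0.148) and Hivep3 (0.153), and Sprr1a, a cornified envelope gene, had values of 269, 1072, 1394 and 1527. The genes closest to Igfbp5 rested on 2 to 4 reads in luminal 3, and Aldh1a3 on 7 to 28 reads in a library, so which genes come closest is not resolved beyond counting error. Such likeness over 4 libraries is a description of these libraries only.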

How the data were processed

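RNA-seq libraries of sorted basal and luminal cells, 2 of each, were made with the Ovation Solo kit. The authors mapped reads to GRCm38 (mm10) with STAR, counted genes with HTSeq on an Ensembl annotation and scaled to a common number of aligned reads; Picard is also named in the submitters' processing notes. The deposited signal is this scaled value, rounded to a whole number, without the study's filter on low values. Counting mode, strand and duplicate removal are not given in the sources used here.

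Whole reads were recovered from the spacing of low values (up to 60 reads), on which 99.0%, 97.9%, 98.6% and 98.3% lay (tolerance 0.6). In luminal replicate 2 some genes lay on another spacing, so its reads are approximate for them, which bears on edgeR, DESeq2 and the intervals. Genes were kept when every library of at least 1 cell type was at 10 or more and its average at 20 or more, leaving 18737. Group averages were compared at ratios of 2 and 0.5. limma 3.58.1 (R 4.3.3) was fitted to log2(value + 1) with a trended prior. edgeR 4.0.16 and DESeq2 1.42.0 on recovered reads were alternatives, as were other filters, scalings, pseudocounts, fold thresholds and gene lengths and leaving out each library. In tests on simulated data, with 200 genes altered 16-fold, limma recovered 58.0%, edgeR 99.5% and DESeq2 97.0%, and at 4-fold 0.0%, 49.5% and 42.5%. The 2-fold ratio alone made 3905 calls at 4-fold and 3929 at 16-fold, of which 95.0% and 94.9% were wrong. With only 200 genes altered among 19163 and 19130 tested, most of that many calls had to be wrong. That share is therefore no error rate for the real data. Every simulated gene had the same dispersion, 0.108, and altered genes averaged 100 or more, so the recovered shares hold for that setting only. Gene models were GENCODE's, holding 49412 of the 49671 identifiers. Ratio intervals are Clopper-Pearson and share intervals Wilson, at 95%, for counting error only.

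The members and lists were chosen with earlier results of these data known. All members were named, with every pathway gene of the ligand and protease lists and, in each other list, the 2 with the largest fitted log2 fold change in each direction among those past the 2-fold ratio at an average of 100 or more. A result for 1 gene that this rule names is not reported here. For the likeness of profiles, the 3 closest protein-coding genes at that average were taken.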

Additional observations from a re-analysis of the deposited data

How the results depend on the processing

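No paired analysis was possible because the basal and luminal libraries share only 1 replicate number, 3. Igfbp5 had an adjusted p under 0.05 in 4 alternatives (filter in both groups, pseudocount 10, edgeR, DESeq2), so the count of such members was 1 in each of them and 0 otherwise, leaving out a library included. Members past the fold threshold toward luminal cells numbered 2 when libraries were rescaled to nuclear protein-coding genes, beside 4530 of 18619 genes. At a threshold of 4 they numbered 0, beside 1456 of 18737 genes. Member counts in both directions moved in some fits without 1 library, as did those of all genes. Pathway genes past it toward luminal cells numbered 6 under that rescaling, 2 with the filter in both groups and 3 to 7 without 1 library, and toward basal cells 3 after that rescaling, 1 at a threshold of 4 and 8 to 18 without 1 library. The cause was not tested. The Igf1r to Insr ratios stayed within their counting intervals with another gene length.

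Of 296 values of 25 named genes under alternatives, 256 kept direction and side of the threshold, 17 came past it and 23 reversed, 13 of these without 1 library. After the protein-coding rescaling, in edgeR and in DESeq2, Igfbp6 turned to 0.15, 0.13 and 0.19, Igf2 to 0.28, 0.11 and 0.15, and Stc1 to 0.26, 0.064 and 0.10, and Igf2 was 0.0068 after median-ratio rescaling. Without 1 library, the log2 fold change ranged from -0.62 to 1.50 for Igf1, -0.19 to 0.28 for Insr, -0.56 to 2.76 for Igfbp2, -0.11 to 1.39 for Igfbp3, -1.29 to 0.97 for Igfbp6, -0.95 to 0.89 for Igf2, -3.96 to 0.0023 for Pappa and -0.78 to 0.68 for Stc1.

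Over all genes, limma called 48 higher in luminal and 82 higher in basal cells. These were 0 and 0 without a filter (4455 with an unadjusted p under 0.05), 269 and 409 with the filter in both groups, 212 and 319 with pseudocount 10, 223 and 321 without the trended prior, 6 to 830 and 14 to 751 without 1 library, 441 and 507 in edgeR and 403 and 416 in DESeq2. Past the fold threshold, 3431 and 3051 genes became 4530 and 2114 under the rescaling to protein-coding genes, 6535 and 7806 without a filter, 1852 and 1792 with it in both groups and 1456 and 1133 at a threshold of 4. Fits without 1 library leave a cell type with a lone library, which is taken to vary like the others. Igfbp2, Igfbp6 and Pdk4 rest on 12 reads or fewer in each luminal library, which limits what can be said of them.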
